A study of Homo sapiens with 8 samples.

Results

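MAF is a transcription factor gene that is joined to the immunoglobulin heavy-chain locus by a recurrent myeloma translocation, and CCND2, ITGB7 and CCR1 are genes it is known to activate in myeloma. Trimethylation of histone H3 at lysine 4 (H3K4me3) was described at these 4 genes in MM1S, an established human multiple myeloma line that carries this translocation. The 4 genes were taken as 1 group for that relation, and MAF was chosen by its called width, which was narrower in every KDM5-C70 list than in every DMSO list. Values at MAF are therefore given without a test. The members were all bases called within 5 kb of the 4 transcription start sites on GRCh37, at 16:79634622 (MAF), 12:4382902 (CCND2), 12:53601000 (ITGB7) and 3:46249832 (CCR1). These windows held 8 of the 50523 merged regions of the series, which were made by joining regions of different libraries that overlap by at least 1 bp.

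The 3 KDM5-C70 libraries came from MM1S cells given KDM5-C70, an inhibitor of the KDM5 family of H3K4 demethylases, at 50 uM for 7 days. The 5 DMSO libraries came from MM1S cells given the vehicle, for which the labels state no time. All 8 libraries are H3K4me3 chromatin immunoprecipitations from the same line, and nothing in the labels says whether the numbered libraries came from separate cultures, so p-values measure the spread between these libraries only. As deposited, each library has its own list of called regions, and many regions carry shorter inner segments within them. The called bases and the inner bases of a gene are the base pairs that these cover in its window. A width is a length of called sequence and not an amount of the mark, and the depth of the libraries is unknown.

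H3K4me3 marks the nucleosomes on both sides of active transcription starts, and broad H3K4me3 domains are known for genes that define a cell's identity. KDM5 enzymes remove methyl groups from this lysine. MAF encodes a large MAF protein that binds MAF recognition elements. CCND2 encodes cyclin D2, which drives cells from G1 towards DNA synthesis with CDK4 or CDK6. ITGB7 encodes integrin beta 7, which pairs with an alpha chain and holds myeloma cells to stroma. CCR1 encodes a chemokine receptor for ligands such as CCL3.

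The RefSeq promoter table (GRCh38.p14) held 3 of the 4 genes, MAF, ITGB7 and CCR1, and not CCND2. The 250 bases before each RefSeq start are shown because they were mostly uncalled, except at MAF in DMSO 3, 4 and 5, whose regions ran across them. They lie at chr16:79600738-79600987, chr12:53207252-53207501 and chr3:46208314-46208563, all on the minus strand of GRCh38.p14, and are written 5′ to 3′ along the gene. Capitals mark matches to the motifs described after them.
MAF: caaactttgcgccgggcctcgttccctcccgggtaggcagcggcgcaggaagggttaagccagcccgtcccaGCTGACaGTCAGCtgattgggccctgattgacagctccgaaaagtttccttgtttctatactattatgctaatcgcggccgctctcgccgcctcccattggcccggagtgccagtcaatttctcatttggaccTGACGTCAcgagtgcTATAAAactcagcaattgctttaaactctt
ITGB7: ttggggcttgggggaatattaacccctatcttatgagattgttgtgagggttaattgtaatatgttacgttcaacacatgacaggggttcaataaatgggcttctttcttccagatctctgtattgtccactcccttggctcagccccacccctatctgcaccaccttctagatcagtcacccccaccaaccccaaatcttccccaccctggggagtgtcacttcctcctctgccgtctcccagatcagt
CCR1: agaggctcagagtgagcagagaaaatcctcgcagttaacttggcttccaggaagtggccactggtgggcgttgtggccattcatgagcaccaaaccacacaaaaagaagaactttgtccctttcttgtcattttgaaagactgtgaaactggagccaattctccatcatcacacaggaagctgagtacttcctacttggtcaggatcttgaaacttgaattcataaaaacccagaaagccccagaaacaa

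The 3 promoters differed in base composition. The MAF stretch held 16 CpG dinucleotides, while those of ITGB7 and CCR1 held 2 each, and the median over the 35116 promoter entries of the table was 11. Of all entries, 59.0% had fewer CpG than MAF and 14.7% had fewer than ITGB7 or CCR1. Motifs were searched on both strands. The core letters GCTGAC of the MAF recognition element occurred as an inverted pair at bases -178 to -173 and -171 to -166 before the MAF start. At least 1 copy was held by 12.6% of all entries, and the frequency of such a pair was not counted. The cyclic AMP response element TGACGTCA occurred at -45 to -38, a palindrome and so found on both strands, and 1.65% of entries held it. The TATA box letters TATAAA occurred at -30 to -25, and 10.7% of entries held them. The MAF matches did not overlap each other, and none of the 3 motifs was found in the ITGB7 or CCR1 stretch.

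This stretch before the start was largely outside the called sequence. Over the 250 bases before the GRCh37 start of MAF, the 3 KDM5-C70 libraries called 0 bp, as did DMSO 1 and 2, while DMSO 3, 4 and 5 called all 250 bp. No library had an inner base there. At CCND2 and CCR1 no library called any of the 250 bases, and at ITGB7 the 3 KDM5-C70 libraries called 0 bp against 0 to 68 bp in the DMSO libraries. The RefSeq starts of the sequences and the GRCh37 starts of the called regions belong to different builds and were not aligned to each other.

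**Figure D1:**
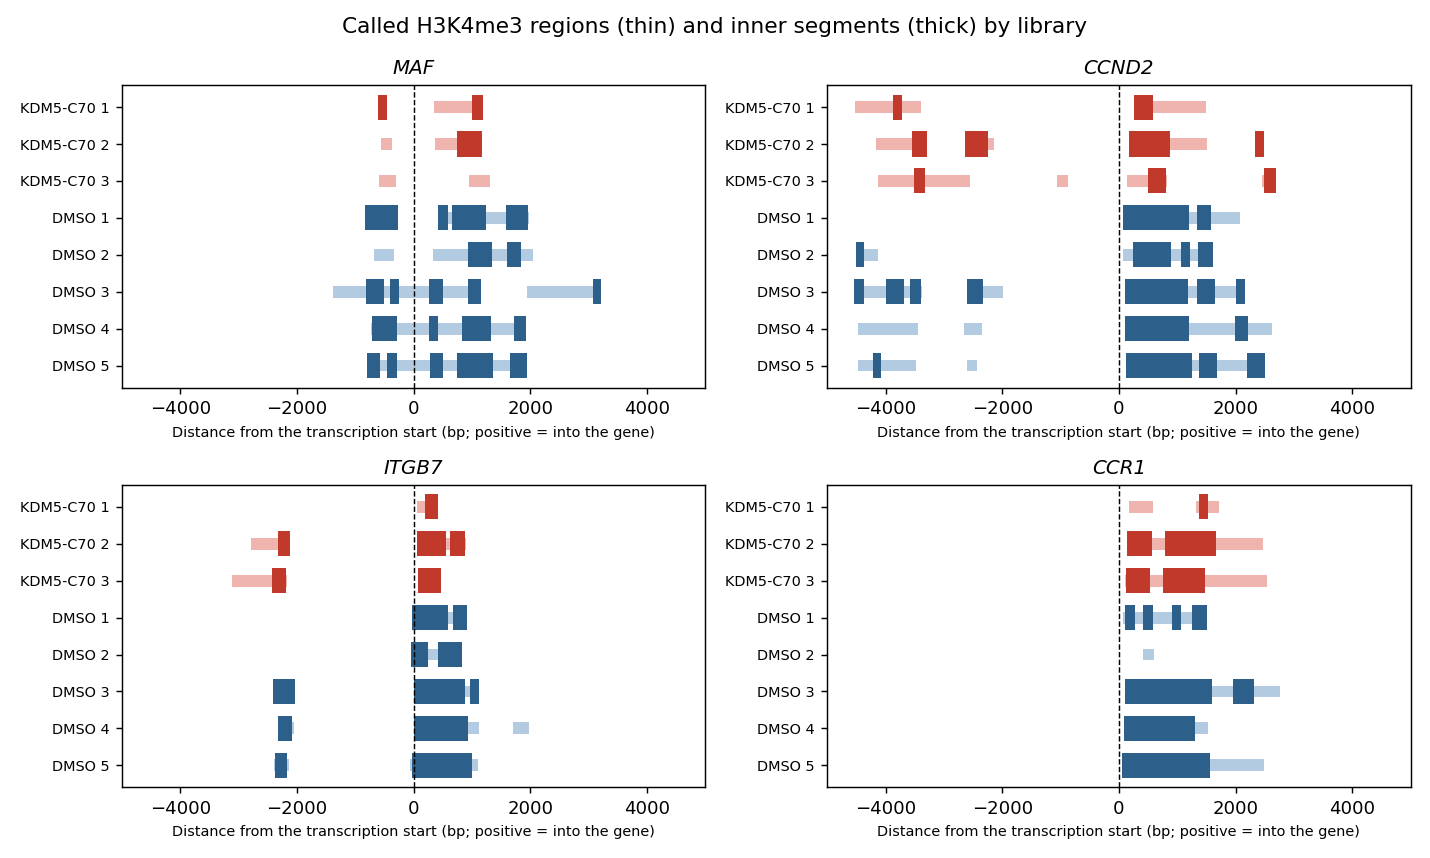
Called regions (thin bars) and inner segments (thick bars) of the 3 KDM5-C70 libraries (red, upper rows) and the 5 DMSO libraries (blue, lower rows) against distance in bp from the start of each gene, with positive values inside the gene. At MAF the called sequence of the KDM5-C70 libraries reached 1173 to 1315 bp into the gene, and that of the DMSO libraries 1929 to 3220 bp.

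MAF carried a short pair of H3K4me3 regions in KDM5-C70 cells and much wider H3K4me3 in DMSO cells. KDM5-C70 libraries 1 to 3 called 998, 984 and 659 bp in the window, against 2136, 2054, 3798, 2657 and 2755 bp in DMSO libraries 1 to 5. The highest KDM5-C70 value was thus below the lowest DMSO value, which is the property the gene was picked for. The mean of the 3 KDM5-C70 libraries was 880 ± 192 bp (SD), against 2680 ± 697 bp (SD) for the 5 DMSO libraries, a ratio of 0.328. All of this called sequence lay in 1 merged region, on GRCh37 chromosome 16 from 79631402 to 79635998, which begins 1376 bp before the start and reaches 3220 bp into the gene. In the annotation of GRCh38.p14 a long non-coding RNA gene, LOC101928230, starts close to MAF on the opposite strand, and H3K4me3 carries no strand, so its share of this mark cannot be told apart from that of MAF.

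The shorter width at MAF concerned both sides of the start. Inside the gene, KDM5-C70 libraries called 365 to 852 bp and DMSO libraries 1567 to 2422 bp. Before the start the values were 146 to 294 bp with KDM5-C70 and 339 to 1376 bp with DMSO. The groups overlapped on neither side, although before the start 294 bp with KDM5-C70 lay close to 339 bp with DMSO. Both sides are parts of the width that MAF was chosen for, so this separation is a description only. The KDM5-C70 lists always had 2 regions here with the start uncalled between them, as did DMSO 1 and 2, while DMSO 3, 4 and 5 called straight across the start.

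Inner segments at MAF differed in the same direction as the called regions. KDM5-C70 libraries 1 to 3 had 339, 432 and 0 inner bp, against 1691, 656, 1078, 1278 and 1547 bp in DMSO libraries 1 to 5. KDM5-C70 3 had no inner segment at all, and the other KDM5-C70 libraries had 2 and 1, while DMSO libraries had 2 to 5. All 5 DMSO libraries shared 222 inner bases, between 930 and 1151 bp inside the gene, and no inner base was shared by the 3 KDM5-C70 libraries. The inner share of the called sequence had a mean of 25.96 ± 23.02% (SD) in the 3 KDM5-C70 libraries, against 48.7 ± 20.5% (SD) in the 5 DMSO libraries, and here the groups overlapped.

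**Figure D2:**
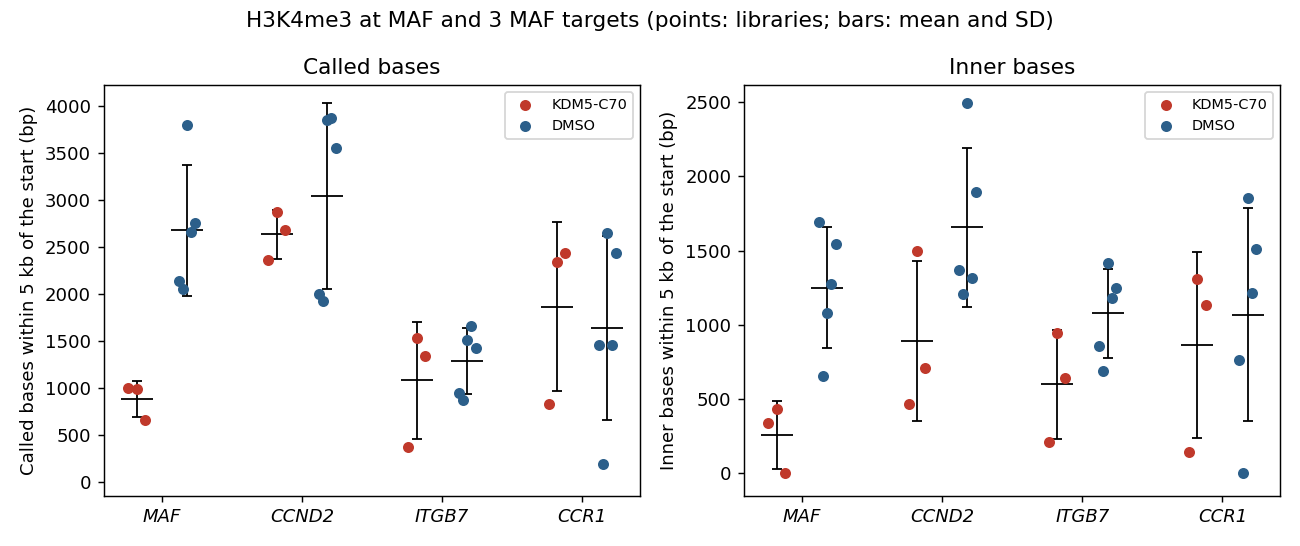
Called bases (left) and inner bases (right) in bp within 5 kb of each start, with 1 point per library, KDM5-C70 in red to the left of DMSO in blue, and black bars for the mean and SD. The groups do not overlap at MAF, where KDM5-C70 reaches at most 998 called bp and DMSO at least 2054, and they overlap at the other genes.

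CCND2 had 2 stretches of H3K4me3 in its window, and the values of the 2 groups differed by stretch. Over the whole window KDM5-C70 libraries called 2357, 2873 and 2678 bp, against 2001, 1922, 3857, 3870 and 3554 bp in DMSO libraries. The KDM5-C70 values lay between the low DMSO 1 and 2 and the high DMSO 3, 4 and 5. The difference of -405 bp was smaller than the spread (2-sided exact permutation p = 0.5). It lay between -685 bp (without DMSO 2) and -198 bp (without DMSO 4) when 1 library was left out, with -665 bp without DMSO 1 and -201 bp without DMSO 3, and it was -1530 bp with only regions whose deposited -log10 q-value reached 5 (2-sided exact permutation p = 0.357). Inner bases in the window averaged 893 ± 539 bp (SD) over the 3 KDM5-C70 libraries, against 1655 ± 537 bp (SD) over the 5 DMSO libraries (2-sided exact permutation p = 0.143). These exact p-values, here and at CCR1, are over 56 assignments, cannot go below 0.0357 and are unadjusted.

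The stretch inside CCND2 was shorter in every KDM5-C70 library. No called region held the start itself, and the nearest merged region lay on GRCh37 chromosome 12 from 4382975 to 4385592, beginning 73 bp inside the gene. KDM5-C70 libraries called 1233, 1494 and 902 bp of it, against 2001, 1543, 2067, 2535 and 2388 bp in DMSO libraries. The groups did not overlap, although KDM5-C70 2 and DMSO 2 differed by little. Its inner bases were 316, 852 and 518 bp with KDM5-C70, against 1372, 1058, 1553, 1313 and 1749 bp with DMSO, again without overlap. The first base called inside the gene lay 145 to 260 bp from the start with KDM5-C70 and 73 to 120 bp with DMSO. RefSeq (GRCh38.p14) places starts of the antisense gene CCND2-AS1 inside CCND2, so the mark of these 2 genes cannot be told apart here.

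The stretch before CCND2 did not follow the stretch inside the gene. Its merged region, from 4378359 to 4380918, was called over 1124, 1379 and 1576 bp in KDM5-C70 libraries, against 0, 379, 1790, 1335 and 1166 bp in DMSO libraries. The groups overlapped, and it was not called in DMSO 1. Its farthest base lay at -4543 bp from the start, just inside the limit of 5 kb. A further region of 200 bp between the 2 stretches was called in KDM5-C70 3 alone.

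The called width of the CCND2 region near the start was lower on average but did not pass the test across all regions, while its inner width passed in 3 of the other fits. In limma over the 13729 regions called in all 8 libraries, the log2 change of called width was -0.81 (SE 0.23, limma adjusted p = 0.994, unadjusted p = 0.00506), and this fit called 0% of regions. In the fit of inner width over the 12816 regions with inner bases in all 8 libraries, the log2 change was -1.42 (SE 0.34, limma adjusted p = 0.512, unadjusted p = 0.0012), and again 0% were called. With each library centred on its median inner width the change was -1.33 (SE 0.19, limma adjusted p = 0.0231), where 0.172% of regions were called. Libraries fall into 2 sets, recognised from the data, whose widths deviated together, DMSO 1, DMSO 2 and KDM5-C70 1 against the other 5. The first set had the shortest lists, with 15323 to 20998 regions and 12.9 to 17.8 Mb called. The other 5 had 28195 to 37948 regions and 27.5 to 36.7 Mb. With this set as a term the change was -1.46 (SE 0.22, limma adjusted p = 0.0238, 1.64% called). The set was read from the same widths that the term adjusts. Its p-values, here and at ITGB7, are therefore not independent support. With both changes to the fit the log2 change at CCND2 was -1.32 (SE 0.18, limma adjusted p = 0.0109, 1.65% called). The regions called were mostly narrower, 22 against 0 wider with centring, 210 against 0 with the set and 194 against 17 with both. Over all their regions, KDM5-C70 libraries had inner shares of 56.5 to 58.4%, against 68.2 to 76.3% for DMSO libraries. The part of this in the CCND2 values was not tested. Over all 14 alternative fits the limma adjusted p of the inner width ranged from 0.0109 to 1.00, and its log2 change stayed between -1.78 and -1.06. Reading CCND2 and CCR1 at the nearest region was decided after the data were seen, because no region holds either start.

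ITGB7 had a shorter H3K4me3 region that covered or adjoined its start. The merged region lay on GRCh37 chromosome 12 from 53599875 to 53601068, from 68 bp before the start to 1125 bp inside the gene. KDM5-C70 libraries called 367, 848 and 403 bp of it, against 948, 874, 1118, 1124 and 1168 bp in DMSO libraries. The groups did not overlap, and KDM5-C70 2 with 848 bp lay close to DMSO 2 with 874 bp. The call in KDM5-C70 2 was the weakest, with a deposited -log10 q-value of 0.936, against 2.48 to 13.8 in the other libraries. In KDM5-C70 libraries the region began 54 to 70 bp inside the gene, while in DMSO libraries its first base lay between 68 bp before and 8 bp after the start. The region held the start in DMSO 1, 2, 4 and 5 and in no KDM5-C70 library.

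The test across all regions did not call ITGB7. The log2 change of called width was -1.05 (SE 0.31, limma adjusted p = 0.994, unadjusted p = 0.00739). Inner bases of the region were 214, 742 and 396 bp with KDM5-C70, against 854, 689, 1035, 938 and 1029 bp with DMSO, so that KDM5-C70 2 lay above DMSO 2. The log2 change of inner width was -1.18 (SE 0.41, limma adjusted p = 0.892). With the set of libraries as a term and centring it was -1.08 (SE 0.23, limma adjusted p = 0.0484), and over the 14 alternative fits the adjusted p ranged from 0.0484 to 1.

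A small region before ITGB7 was present only in the libraries with longer lists. It lay at -3108 to -2027 bp from the start and was called in KDM5-C70 2 and 3 with 679 and 939 bp, and in DMSO 3, 4 and 5 with 388, 274 and 253 bp. The other 3 libraries did not call it. A region of 262 bp inside the gene was called in DMSO 4 alone. With these regions added, called bases of the whole window overlapped between the groups, at a mean of 1079 ± 623 bp (SD) for the 3 KDM5-C70 libraries, against 1282 ± 350 bp (SD) for the 5 DMSO libraries. In the region at the start alone the inner share was 58.3, 87.5 and 98.3% in KDM5-C70 libraries. It was 78.8 to 92.6% in DMSO libraries there, so the groups overlapped. In the whole window, with the region before the gene included, the inner share was 47.6 to 61.7% with KDM5-C70 and 71.1 to 94.2% with DMSO. The libraries differed in the same direction over all their regions, with inner shares of 56.5 to 58.4% for KDM5-C70, against 68.2 to 76.3% for DMSO, and the part of this in the values at the genes was not tested. With each library scaled by its median inner width, the differences in inner bases were -953 bp at MAF, -733 bp at CCND2, -470 bp at ITGB7 and -129 bp at CCR1.

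At CCR1 the groups did not differ beyond the spread between libraries. Its called sequence lay wholly inside the gene, on GRCh37 chromosome 3 from 46247079 to 46249779, beginning 53 bp from the start. KDM5-C70 libraries called 822, 2335 and 2438 bp, against 1455, 192, 2650, 1451 and 2438 bp in DMSO libraries. KDM5-C70 1 and DMSO 2 were lowest, KDM5-C70 3 and DMSO 5 were equal, and the groups overlapped (difference 228 bp, 2-sided exact permutation p = 0.786). Inner bases were 146, 1308 and 1134 bp with KDM5-C70, against 762, 0, 1853, 1217 and 1510 bp with DMSO (2-sided exact permutation p = 0.679). The log2 change of called width was 0.46 (SE 0.79, limma adjusted p = 0.994), an error that also leaves room for a difference as large as at CCND2.

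Read against all regions, MAF, CCND2 and ITGB7 were among the regions whose called width was lower in every KDM5-C70 library than in every DMSO library. Of the 13729 regions called in all 8 libraries, 0.605% had all 3 KDM5-C70 values below all 5 DMSO values, and the regions nearest to the starts of these 3 genes were among them. For MAF this is the property that chose it. In the opposite direction, 131 regions had all KDM5-C70 called widths above all DMSO values, against 83 below. By inner width, 2.08% of 12816 regions had all KDM5-C70 values below all DMSO values (267 regions, against 3 above), CCND2 among them and ITGB7 not, while MAF and CCR1 were outside that fit because KDM5-C70 3 had no inner base at MAF and DMSO 2 none at CCR1. The median log2 change over all regions was 0.14 for called width and -0.07 for inner width. A log2 change of called width lower than that of CCND2 was found in 105 regions, and lower than that of ITGB7 in 45. The log2 change of MAF, -1.60 (SE 0.24), is a description only.

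**Figure D3:**
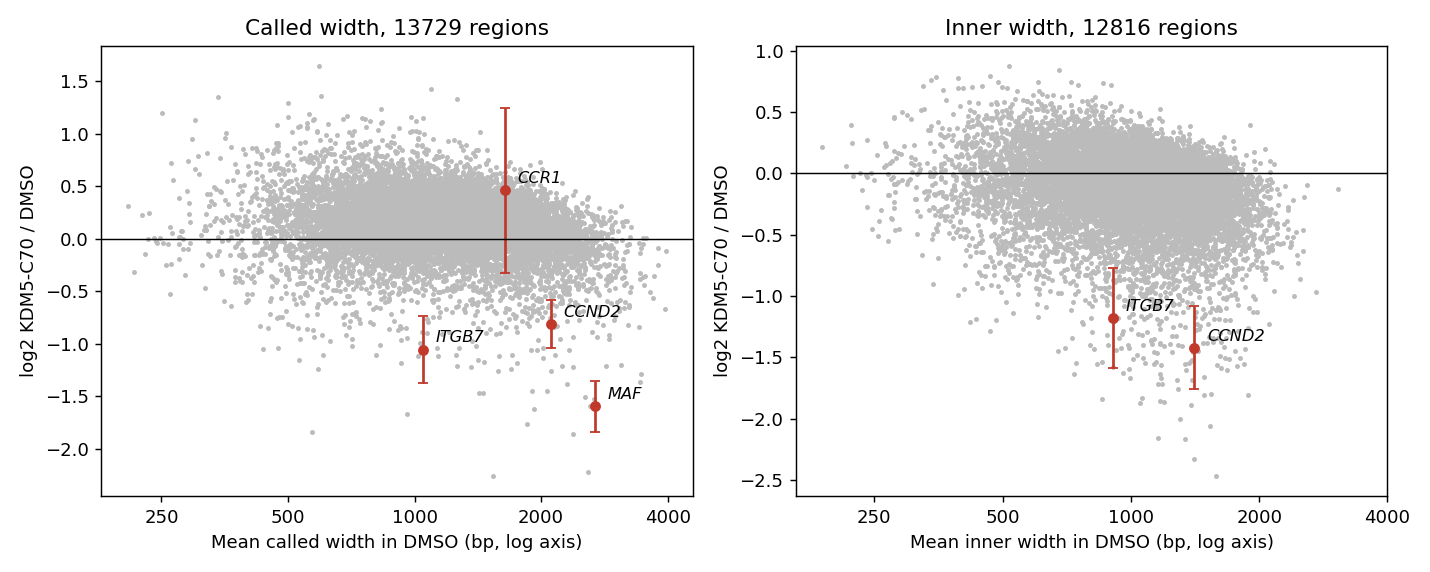
Log2 change (KDM5-C70 over DMSO) against mean width in DMSO libraries (bp, log axis) for called width (left, 13729 regions) and inner width (right, 12816 regions), with the regions nearest to the gene starts in red and bars of 1 SE. CCND2 lies at -0.81 and ITGB7 at -1.05 in called width, below a median of 0.14, with CCR1 at 0.46 and MAF, which was chosen for its width, at -1.60.

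The order of the genes by mean called bases differed between the groups in the place of MAF relative to the others, and MAF was chosen for its difference in width. Within KDM5-C70 libraries 1 to 3 the MAF region was wider than 52.2, 17.5 and 5.18% of the shared regions, and within the DMSO libraries it was wider than 96.6 to 99.7% of them. CCND2 was wider than 70.04, 47.0 and 13.3% in KDM5-C70 libraries, against 82.2 to 96.1% in DMSO libraries. ITGB7 was wider than 1.47 to 11.4% in KDM5-C70 libraries and 24.8 to 52.7% in DMSO libraries. CCR1 ranged from 38.0 to 89.0% with KDM5-C70 and from 2.53 to 95.1% with DMSO. By mean called bases in the window, the order in KDM5-C70 was CCND2, CCR1, ITGB7 and MAF, and in DMSO it was CCND2, MAF, CCR1 and ITGB7, so that CCND2, CCR1 and ITGB7 kept their order. In KDM5-C70 each gene differed from the next in this order by less than the larger SD of the pair. In DMSO, the neighbours CCND2 with MAF, and CCR1 with ITGB7, differed by less than the larger SD of the pair.

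**Figure D4:**
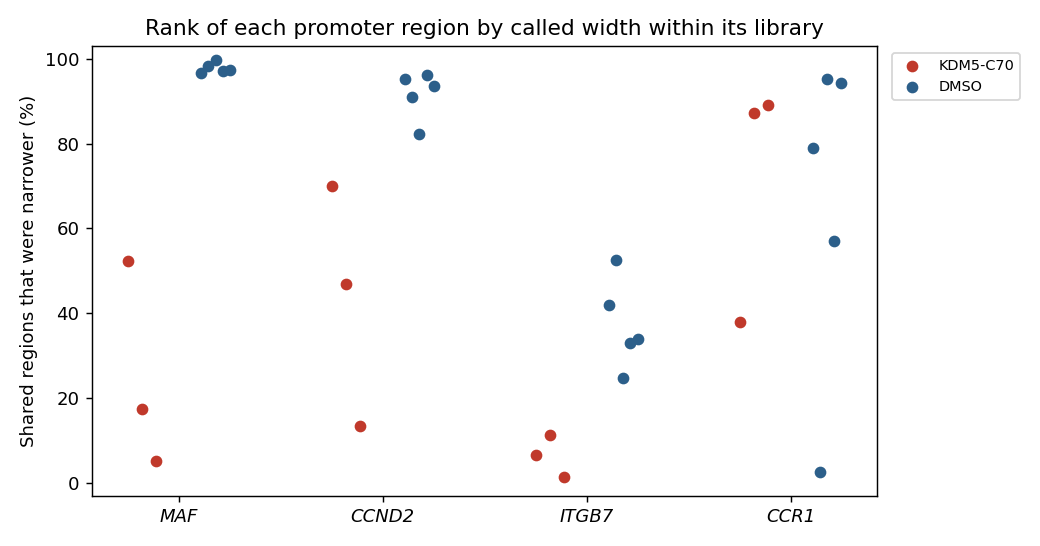
Share of the 13729 shared regions (%) that were narrower than the region nearest to each gene start, within each library, with KDM5-C70 (red) left of DMSO (blue). The KDM5-C70 libraries place MAF at 5.18 to 52.2%, and the 5 DMSO libraries at 96.6 to 99.7%.

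Within the 2 sets of libraries the sign at MAF is fixed by how the gene was chosen, so that only the sizes are given. The difference in called bases of KDM5-C70 1 from the mean of DMSO 1 and 2 was -1097 bp, and that of the mean of KDM5-C70 2 and 3 from the mean of DMSO 3, 4 and 5 was -2249 bp. At CCND2 the whole-window difference changed sign between the sets, at 396 bp and -985 bp in the same order, while its inner bases differed by -819 and -796 bp. At ITGB7 the called bases differed by -544 and -94.5 bp and the inner bases by -558 and -492 bp. At CCR1 the called bases differed by -1.5 and 207 bp, with a change of sign, and the inner bases by -235 and -306 bp.

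Regions with a width pattern like that of MAF were looked for by the Euclidean distance of log2 called width over the 8 libraries, which was smallest at the 5 regions described here and had a median of 3.11 over the other 13728 regions. The nearest lay on chromosome 6 from 109413314 to 109417354 (distance 0.92), with 1067 ± 164 bp in KDM5-C70 and 2335 ± 956 bp in DMSO libraries. Next came chromosome X from 39953325 to 39957156 (distance 0.96), where KDM5-C70 libraries had 957 ± 425 bp and DMSO libraries 2670 ± 771 bp. After these came a region of chromosome 12 from 104322987 to 104325765, one of chromosome X from 3731918 to 3734852 (distance 1.23) and one of chromosome 13 from 31037643 to 31040601 (distance 1.25). The region on chromosome 13 overlapped between the groups. They resemble MAF by the measure that found them, with n = 3 and n = 5 libraries for the means and SDs.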

How the data were processed

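The submitters' processing notes name Trim Galore 0.40, Bowtie 1.1.2, MACS2 2.1.0, HOMER 4.8 and the build GRCh37, with settings not given in the sources used here. Per library, the authors deposited 1 list, not pooled, with positions and inner blocks in base pairs. Each deposited list also gives every region a score for display, its fold over background as a ratio, and 2 values on a -log10 scale, the p-value and the q-value. Of these only the q-value was used, as a filter and to describe the region at the ITGB7 start. Inner blocks of 1 bp, which mark region ends, were left out, and the autosomes and X were kept. No read totals were used, so no counting interval can be given.

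Start sites came with the definition of the 4 genes. The tables used here give no GRCh37 positions for other genes, so further MAF family members, MAF targets and plasma cell markers were not analysed here. Log2 bases per region were fitted in limma 3.58.1 (R 4.3.3), with a variance trend, 2-sided, Benjamini-Hochberg adjusted over all regions at 0.05, for all 8 libraries. The fits were tested on simulated data with log2 changes of 2 in 200 regions. Of these, 98% were recovered for called width and 96% for inner width, with 9 and 11 false calls. Smaller changes, such as those at CCND2 and ITGB7, were not simulated. The simulated libraries varied independently, with the same spread, taken from the DMSO libraries, in every region. They therefore held no sets of libraries and no regions of unequal spread, and the recovery in the real lists is not known. Regions were merged and tested exactly in Python 3.11.15 (pandas 2.3.3, numpy 2.4.6), and plots were drawn with matplotlib 3.10.9. Members, lists and tests were chosen with earlier results of these data known. Named were the 4 genes and the 5 regions closest to MAF in width pattern.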

Additional observations from a re-analysis of the deposited data

How the results depend on the processing

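At MAF the difference in called bases lay between -2396 bp (lists of equal length) and -1520 bp over 18 alternatives. Its sign is no sign of stability, since MAF was chosen for groups that do not overlap. Lists of equal length also took the called bases at ITGB7 to -924 bp and its inner bases to -838 bp, and the inner bases at CCND2 to -1146 bp (2-sided exact permutation p = 0.0357). These lists held the 15323 widest regions of each library, so the cut acted on width itself. The KDM5-C70 mean of called bases fell from 880 to 284 bp at MAF, where the DMSO mean stayed at 2680 bp. At ITGB7 it fell from 1079 to 122 bp, and the DMSO mean from 1282 to 1046 bp. The larger differences with these lists, and the p-value at CCND2, are therefore partly built in. The region nearest to the CCND2 start alone, an alternative added after the data were seen, gave -897 called and -847 inner bp (2-sided exact permutation p = 0.0357 for both). Called bases at CCR1 turned to -1018 bp with stricter lists, of regions whose deposited -log10 q-value reached 5 (2-sided exact permutation p = 0.714). In these lists no KDM5-C70 library called the region, and neither did DMSO 1, 2 and 4, so the value rests on DMSO 3 and 5. When 1 library was left out, the difference in called bases at CCR1 lay between -134 bp (without DMSO 2) and 749 bp. It was below 0 also without KDM5-C70 2 or 3. Inner bases at CCR1 turned to 28.3 bp with a window of 10 kb, were -673 bp with stricter lists, and lay between -473 bp (without DMSO 2) and 153 bp (without KDM5-C70 1) when 1 library was left out. Its log2 called width lay between -0.20 (without DMSO 2) and 0.98 (without KDM5-C70 1). Same-numbered libraries deviated together for numbers 1 and 3 (r of 0.367 and 0.318) and not for number 2 (-0.306). Differently numbered libraries of the same set also did, such as KDM5-C70 1 with DMSO 2 (0.415) and KDM5-C70 2 with DMSO 3 (0.312). Libraries of different sets did not, as in KDM5-C70 2 with DMSO 1 (-0.268). These values followed the sets, so they cannot decide whether the numbers pair the libraries. The replicate block took CCND2 called bases to 42.7 bp and called 10 regions in called width. The other counts of regions that were not 0 were 27 in called width (set of libraries with centring), 22, 210 and 211 in inner width (centring, set, and both), 0 to 1 in inner width when 1 library was left out (1 without KDM5-C70 1), and 1 of 10 regions in each measure with stricter lists; the cause was not tested. Unadjusted p-values under 0.05 were found in 242 of 13729 regions for called width and 465 of 12816 for inner width. Both counts are below the 5% of regions expected by chance. Called bases at ITGB7 lay between -427 and 153 bp when 1 library was left out, above 0 only without KDM5-C70 1. The region that holds the start could not be given for CCND2 and CCR1. The unknown depth limits all of these.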

Other observations

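Within 50 kb of its start MAF had 4 merged regions, of which only that at the start was called in all 8 libraries. The others lay between -39222 and -27201 bp from the start and were each called in 1 or 2 libraries. CCR1 likewise had 4, with 1 called in all 8 libraries. One of the others lay just outside the limit of 5 kb, at -7227 to -5153 bp from the CCR1 start. It was called over 1427 and 1449 bp in KDM5-C70 2 and 3, and over 862 and 356 bp in DMSO 3 and 5, and in no other library.

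CCND2 had 6 merged regions within 50 kb, 2 of them called in all 8 libraries. The second of these, 46593 to 48603 bp downstream of the CCND2 start, averaged 1559 bp in KDM5-C70 and 1387 bp in DMSO libraries, and the groups overlapped. ITGB7 had 9 merged regions, 6 of them called in all 8 libraries. At the shared region 6793 to 9363 bp downstream of the ITGB7 start the means were 1339 bp in KDM5-C70 and 1187 bp in DMSO libraries, and the groups overlapped.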
